A study of Caenorhabditis elegans with 20 samples.

Results

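The genes described here encode the enzymes that remove superoxide and hydrogen peroxide in the nematode *Caenorhabditis elegans*: the superoxide dismutases *sod-1* to *sod-5*, the catalases *ctl-1* to *ctl-3* and the peroxiredoxins *prdx-2* and *prdx-3*. The 10 genes are given by name, and 8 of them have a row among the 22736 genes of the count table. *ctl-1* and *ctl-3* are not analysed here. The libraries were made by Cel-seq2, which counts tags from the 3′ end of polyadenylated transcripts, from the bodies of gravid day 1 adults whose embryos had been removed. Wild-type animals (strain N2) were compared with *dhgd-1(tm6671)* animals, called Δ*dhgd-1* mutants below. These mutants carry a large deletion at the 5′ end of the gene for D-2-hydroxyglutarate dehydrogenase, an enzyme that converts D-2-hydroxyglutarate into α-ketoglutarate, and they represent 1 allele. Both strains were grown on *E. coli* OP50 at 20 °C, either without supplement or with 64 nM adenosylcobalamin, a form of vitamin B12. By the study's methods, stocks were kept with 64 nM of the same supplement, so the unsupplemented animals came from supplemented stocks. Each of the 4 groups had 5 biological replicates, numbered 1, 2, 5, 6 and 7, and each library came from a pool of animals.

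Superoxide leaks from the mitochondrial electron transport chain and is also made by oxidases. Superoxide dismutases turn it into hydrogen peroxide, which catalases break down in the peroxisome and cytosol and which peroxiredoxins reduce with electrons from the thioredoxin system. In *C. elegans*, SOD-1 and SOD-5 are cytosolic copper/zinc enzymes, SOD-4 is the secreted or membrane-bound copper/zinc form, and SOD-2 and SOD-3 are manganese enzymes of the mitochondrial matrix. *sod-3* is a widely used reporter of DAF-16, the FOXO transcription factor held in check by insulin signalling. CTL-2 is the peroxisomal catalase, PRDX-2 is the main cytosolic peroxiredoxin and PRDX-3 its mitochondrial relative.

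The libraries held between 2837943 and 15457950 counts (median 10564242.5). Their names form 2 series, olga (replicates 1 and 2) and s (replicates 5, 6 and 7), a split of the same size as the 2 sequencers named in the study's methods, and the fit carried a term for this series. Wild type with vitamin B12, replicate 7, was the library least like the rest of its group (Pearson r of log2 values 0.939, against 0.947 to 0.984 for the other 19). Its summed intestinal markers stood at 939 CPM (counts divided by the library total, times 1000000), against 4154 to 6238 CPM in the other libraries of that group. Markers of body wall muscle (3314 against 6461 to 10630 CPM) and hypodermis (439 against 497 to 598 CPM) were also lowest in this library. So were those of neurons (225 against 451 to 704 CPM) and germline (820 against 2351 to 2814 CPM), but not those of sperm and embryo. The *dhgd-1* tags, which come from the 3′ end and so do not test the 5′ deletion, were present in every mutant library (5.86 to 59.3 CPM). *dhgd-1* overlaps other annotated genes, among them *F54D5.9* and *gtf-2E2* on the same strand, and reads of these cannot be told apart. As a check of the supplement, *acdh-1*, an acyl-CoA dehydrogenase gene known to fall with vitamin B12, stood at 193 to 428 CPM in the 10 unsupplemented libraries and at 5.82 to 112 CPM in the 10 supplemented ones. Summed germline markers were between 820 and 2967 CPM and summed sperm markers between 0 and 6.12 CPM in all 20 libraries. A list of 7 measured early-embryo markers was dominated by *pha-4* and *elt-7*, which adult pharynx and intestine also make. These stood at 6.87 ± 2.09 and 4.26 ± 1.43 CPM in unsupplemented wild type and at 16.7 ± 11.8 and 8.65 ± 0.997 CPM in unsupplemented mutants (SD, n = 5). Neither was called, though both were with the replicate number as a block. The other 5 (*pes-10*, *end-1*, *end-3*, *med-1* and *nhr-127*) had group means of 0 to 0.318 CPM. In whole bodies, fewer cells of a type and less RNA per cell cannot be told apart.

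Transcripts of the family were dominated by the cytosolic pair. *prdx-2* (1204 ± 295 CPM, SD, n = 20) and *sod-1* (1052 ± 242 CPM) lay above 99.6% and 99.4% of the 22736 genes and together held 90.7% of the counts of the 8 measured genes. Cel-seq2 reads come from the 3′ end, so these levels depend little on transcript length, though whether repeat copies of a molecule were merged is not given in the sources used here. The mitochondrial *sod-2* followed at 98.7 ± 20.9 CPM, *prdx-3* at 61.1 ± 13.4 CPM and the extracellular *sod-4* at 53.9 ± 21.3 CPM. The peroxisomal catalase *ctl-2* was lower, at 11.02 ± 4.66 CPM. *sod-3* (0.730 ± 0.889 CPM) and *sod-5* (0.163 ± 0.317 CPM) lay near the limit of detection, with 111 and 19 counts over all 20 libraries. This order held in all 20 libraries between *sod-1* and *sod-2*, *sod-2* and *prdx-3*, *sod-4* and *ctl-2*, and *ctl-2* and *sod-3*. *prdx-2* exceeded *sod-1* in 16 of 20 libraries and *prdx-3* exceeded *sod-4* in 15 of 20, and the ranges of both pairs of neighbours overlapped. *sod-3* exceeded *sod-5* in 15 of 20 libraries, with 2 ties. The 8 genes together took 0.177% to 0.372% of a library's counts.

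**Figure D1:**
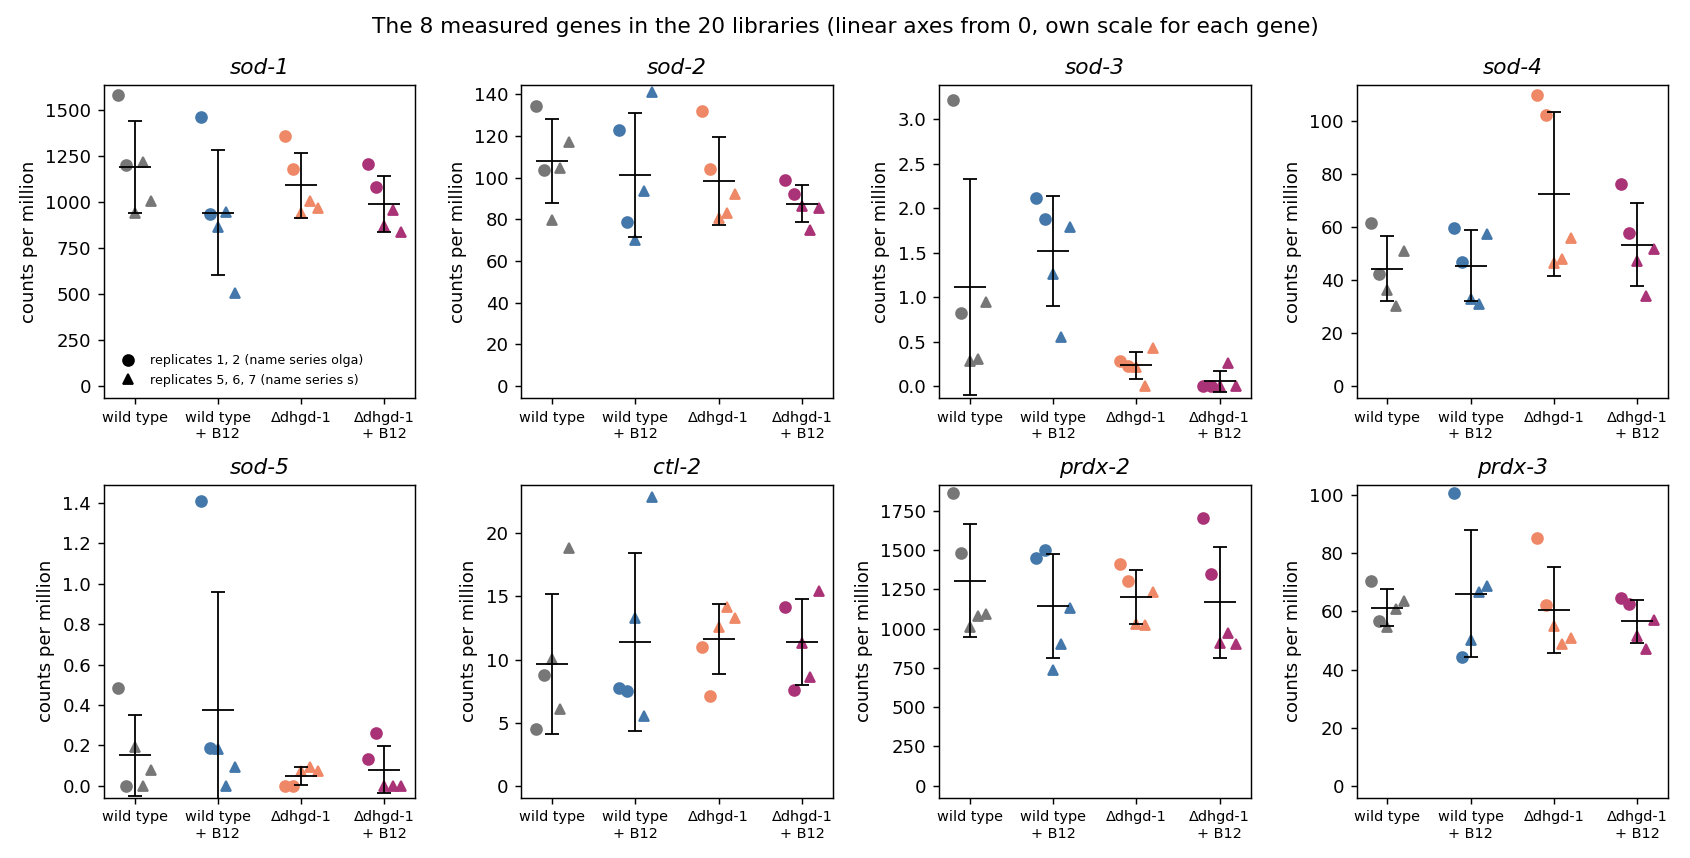
CPM of each measured gene in the 20 libraries, 1 panel a gene with its own linear axis. Circles are replicates 1 and 2, triangles replicates 5, 6 and 7, and black bars the mean ± SD of 5 libraries. *sod-3* is the 1 gene whose supplemented mutants (0 to 0.259 CPM) lie wholly below supplemented wild type (0.550 to 2.11 CPM).

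The 1 member called in any comparison was *sod-3*, the inducible manganese superoxide dismutase, which was lower in Δ*dhgd-1* mutants than in wild type when both were given vitamin B12. In supplemented wild type, replicates 1, 2, 5, 6 and 7 held 6, 10, 14, 6 and 19 *sod-3* counts (2.11, 1.88, 1.26, 0.550 and 1.78 CPM). Replicate 7, with 19 of these 55 counts, is the library least like the rest of its group. In supplemented mutants the same replicate numbers held 0, 0, 0, 4 and 0 counts, the single library above 0 standing at 0.259 CPM. The groups did not overlap, as was so for 0.328% of all tested genes in this direction. The supplemented mutant libraries held 51900872 counts in all and the wild-type ones 40774861, and the part of depth was not tested. The mean level was 1.52 ± 0.624 CPM in wild type and 0.0518 ± 0.116 CPM in mutants (SD, n = 5 each). The log2 fold change was -3.97 (SE 0.78, 95% interval -5.58 to -2.36, edgeR's quasi-likelihood test, adjusted p = 0.0111 over 11270 genes), and *sod-3* was lower in 5 of 5 same-numbered pairs. *sod-3* entered this test through 6 libraries that passed the low-count filter, all of them wild type, so the filter itself favoured a gene that is lower in mutants, and the call is given as a description. Fitted with no such filter, the log2 fold change was -3.94 (edgeR adjusted p = 1.86e-05). That fit called 0.897% of 21639 genes in this comparison, against 0.55% with the filter, so the 2 adjusted p-values are not on the same footing. The pooled counts, 4 against 55, gave a 17.5-fold lower level (exact 95% interval 6.46 to 66.5, which covers counting error only).

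*sod-3* was the only one of the 7 tested members to be called in this comparison, where 0.55% of all genes were called, 0.204% were called lower and 6.79% had an unadjusted p under 0.05. A call required both an adjusted p below 0.05 and more than a 1.5-fold difference. An absence of counts also means less in the shallow libraries: a count of 0 allows up to 0.782 CPM in mutant replicate 2, above the lowest wild-type value, but only 0.225 to 0.398 CPM in replicates 1, 5 and 7. The call was lost when supplemented mutant replicate 5 was left out (log2 -3.71, adjusted p = 0.0517). Without supplemented mutant replicate 6, all remaining mutant libraries were at 0 and the fitted value, -6.77, is set by the prior count. Within the olga series both mutant libraries were at 0, so that the fitted value is no measure of size (adjusted p = 0.423), and within the s series the log2 fold change was -3.46 (adjusted p = 0.435).

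Without supplement the same direction was seen, short of the threshold. Unsupplemented wild type held 20, 3, 3, 2 and 12 *sod-3* counts (3.22, 0.823, 0.286, 0.305 and 0.949 CPM), and unsupplemented mutants 2, 1, 3, 0 and 6 (0.278, 0.230, 0.217, 0 and 0.433 CPM). Each mutant library lay below the wild-type library of the same number, but the groups overlapped, and wild-type replicate 1 alone held 20 of the 40 wild-type counts. The log2 fold change was -2.05 (SE 0.69, 95% interval -3.47 to -0.64, edgeR adjusted p = 0.119), and it was -1.39 to -2.64 when single libraries were left out. The pooled counts, 12 against 40, corresponded to a 4.24-fold lower level (exact 95% interval 2.18 to 8.88, counting error only). The 2 mutant effects were compared in the same model, as the difference between the strains in the vitamin B12 effect on *sod-3*. This difference was -1.92 on the log2 scale (SE 1.11, unadjusted p = 0.0963, edgeR adjusted p = 0.999), so the strains were not shown to differ in their response. Vitamin B12 itself gave a log2 fold change of *sod-3* of 0.51 in wild type (95% interval -0.67 to 1.69) and -1.4045 in mutants (95% interval -3.36 to 0.55), with edgeR adjusted p-values of 0.993 and 0.701.

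**Figure D2:**
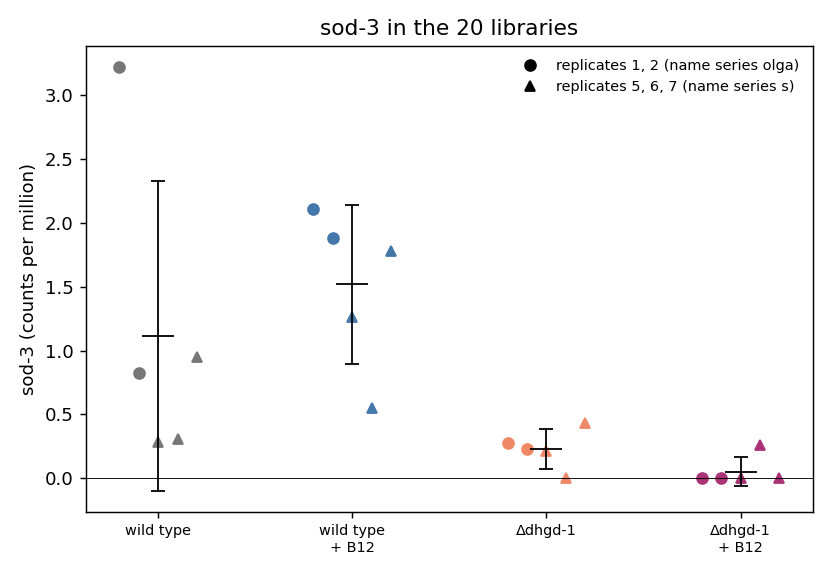
*sod-3* in CPM in each of the 20 libraries by group. Circles are replicates 1 and 2, triangles replicates 5, 6 and 7, black bars the mean ± SD of 5 libraries. The 10 mutant libraries reach at most 0.433 CPM, and 4 of 5 supplemented mutant libraries are at 0.

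*sod-3* lies on chromosome X at 17092753-17094306, plus strand, with 5 exons (annotation WBcel235; the build used for counting is not given in the sources used here). It overlaps *C08A9.3* by 547 bases and *lido-1* by 24 bases, both on the minus strand, and whether counting used the strand is also not given, so reads of overlapping genes cannot be told apart. *C08A9.3* held 5 counts in all libraries together. *lido-1* stood at 6.53 ± 0.984 CPM in supplemented wild type and 6.84 ± 1.11 CPM in supplemented mutants (SD, n = 5). The part of such reads in the *sod-3* counts was not tested.

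Relative to its constitutive partner, *sod-3* was a minor part of the mitochondrial manganese dismutase transcripts. It made up 0.917% ± 0.831 of the *sod-2* plus *sod-3* counts in unsupplemented wild type and 1.53% ± 0.653 with vitamin B12 (SD, n = 5). In mutants the share was 0.233% ± 0.167 without and 0.0689% ± 0.154 with vitamin B12. The difference between supplemented strains was -1.46 percentage points, and the mutant share was lower in 5 of 5 pairs. The two-sided exact permutation test, which exchanged groups within each name series, gave p = 0.0167, the smallest its 120 arrangements allow, and p = 0.2 after adjustment over the 12 shares tested. The design cannot pass the threshold here when a single share differs.

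By the rule for patterns alike, the 3 genes that followed *sod-3* most closely over the 20 libraries, after the mean of each name series was removed, were *fmo-3*, a flavin-containing monooxygenase gene (Pearson r = 0.834), *F09E5.8* (r = 0.832) and *C14H10.2* (r = 0.828). These correlations are descriptions, they share the libraries and their depth, and the *sod-3* side rests on 111 counts. Their group means follow from the way they were picked, so tests of these genes lend no support to *sod-3*. In the edgeR fit *F09E5.8* was called lower in mutants without and with vitamin B12 (log2 -2.43 and -2.46, adjusted p = 2.19e-07 and 1.97e-07). *fmo-3* was called lower without it (log2 -1.65, adjusted p = 0.00688) but not with it, and *C14H10.2* was called in neither. In unsupplemented and supplemented wild type and unsupplemented and supplemented mutants, *F09E5.8* stood at 37.5, 45.0, 7.70 and 8.39 CPM, *fmo-3* at 7.49, 9.35, 2.66 and 3.69 CPM and *C14H10.2* at 7.51, 8.03, 3.93 and 4.19 CPM.

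*sod-4*, the extracellular copper/zinc dismutase, was the only other member with a 95% interval that left out 0 in any comparison, and it pointed up. It lies on chromosome III at 9496884-9500375, minus strand (WBcel235). In unsupplemented wild type its levels were 61.5, 42.3, 36.4, 30.2 and 51.1 CPM, and in unsupplemented mutants 110, 102, 46.4, 47.9 and 55.8 CPM. Every mutant library exceeded the wild-type library of the same number, and the 2 highest were both of the olga series. The groups overlapped. The log2 fold change was 0.50 (SE 0.19, 95% interval 0.10 to 0.90), with an unadjusted p of 0.0161 and an edgeR adjusted p of 0.197, so it did not pass the test. With the replicate number as a block the adjusted p was 0.0457 and the log2 fold change 0.52, short of the 1.5-fold minimum. The change was 0.96 within the olga series and 0.25 within the s series. With vitamin B12, the means were 45.5 ± 13.4 CPM in wild type and 53.4 ± 15.6 CPM in mutants (SD, n = 5), and the log2 fold change was 0.16 (95% interval -0.24 to 0.56). *sod-4* overlaps *ctr-9*, on the other strand, by 175 bases, and *ctr-9* stood at 93.5 ± 9.64 and 90.8 ± 7.87 CPM in the unsupplemented groups.

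*sod-1*, the main cytosolic dismutase (chromosome II, 6972706-6973887, minus strand), was abundant in every group. Its mean was 1189 ± 250 CPM in wild type and 1089 ± 176 CPM in mutants without supplement, and 941 ± 341 and 990 ± 152 CPM with it (SD, n = 5). In both strains the supplemented library was the lower of each same-numbered pair, in 5 of 5 pairs. In wild type, replicates 1, 2, 5, 6 and 7 held 1581, 1199, 941, 1216 and 1006 CPM without and 1459, 934, 863, 944 and 506 CPM with vitamin B12. The log2 fold change was -0.37 in wild type (95% interval -0.78 to 0.04, edgeR adjusted p = 0.724) and -0.09 in mutants (95% interval -0.50 to 0.32, adjusted p = 0.956), and neither was called. The lowest value, 506 CPM, belongs to the library that stood apart, replicate 7, without which the wild-type change was -0.21.

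That library also broke the ratio of *sod-1* to *sod-2*, which was otherwise steady. It was 3.59 *sod-1* counts for each *sod-2* count there, against 8.59 to 12.8 in the other 19 libraries. In the same library *sod-2* (141 CPM) and *ctl-2* (22.9 CPM) were the highest of all 20. Without it the vitamin B12 change in wild type was -0.25 for *sod-2* (-0.12 with it) and -0.13 for *ctl-2* (0.19 with it), so the direction for *ctl-2* turned on this library.

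*sod-2*, the main mitochondrial dismutase (chromosome I, 8434550-8435807, plus strand), stood at 108 ± 20.1 CPM in wild type and 98.4 ± 20.96 CPM in mutants without supplement, and at 101 ± 29.8 and 87.5 ± 8.78 CPM with it (SD, n = 5). The log2 fold change in mutants was -0.28 (95% interval -0.66 to 0.10) without and -0.27 (95% interval -0.65 to 0.11) with vitamin B12, and neither was called. It lies within *dpt-1*, which is on the other strand and overlaps its whole length of 1258 bases. *dpt-1* held 5830 counts against 17390 for *sod-2*.

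*sod-5*, the minor cytosolic dismutase known to be raised in the dauer larva (chromosome II, 4417633-4419130, plus strand), was barely detected. It held 6 counts in unsupplemented and 8 in supplemented wild type, and 3 and 2 counts in the corresponding mutants, and 8 of the 20 libraries held none. A count of 0 allows between 0.194 and 1.06 CPM, depending on the library. It did not pass the low-count filter and was not tested. The pooled ratio of mutant to wild type was 0.393 without supplement (exact 95% interval 0.0636 to 1.84) and 0.196 with it (0.0203 to 0.984), intervals that cover counting error only. Of the 8 counts of supplemented wild type, 4 came from replicate 1. As a share of *sod-1* plus *sod-5* it was at most 0.0965% in any library, and none of its 4 differences between groups passed the exact permutation test (smallest p = 0.133 and smallest adjusted p = 0.36).

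Of the 3 catalases, which lie in a row on chromosome II within 11224 bases (WBcel235), only *ctl-2* was measured. It has 4 exons at 14299556-14302027 on the minus strand. The genes are close relatives, and how tags shared between them were counted is not given in the sources used here. *ctl-2* means were 9.65 ± 5.57, 11.4 ± 7.05, 11.6 ± 2.78 and 11.4 ± 3.40 CPM in unsupplemented and supplemented wild type and unsupplemented and supplemented mutants (SD, n = 5). Its log2 fold changes lay between 0.02 and 0.19 in the 4 comparisons, and their 95% intervals ran from -0.60 to 0.82, so differences of up to about that size were not detectable here. Of the 7 tested members, *ctl-2* alone had a mean level over the s libraries (12.7 CPM) above that over the olga libraries (8.55 CPM).

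The peroxiredoxins showed no called change. *prdx-2* lies on chromosome II at 5378195-5379631 and *prdx-3* on chromosome III at 4407444-4408437, both on the plus strand and without an overlapping gene (WBcel235). *prdx-2* means were 1306 ± 361 CPM in wild type and 1200 ± 172 CPM in mutants without supplement, and 1145 ± 333 and 1168 ± 352 CPM with it (SD, n = 5). Its log2 fold changes lay between -0.23 and -0.03, with 95% intervals from -0.55 to 0.29 at the widest. *prdx-3* means were 61.3 ± 6.26 and 60.5 ± 14.7 CPM without supplement and 66.2 ± 22.01 and 56.6 ± 7.32 CPM with it. Its largest log2 fold change was -0.29, in mutants against wild type with vitamin B12 (95% interval -0.69 to 0.11, edgeR adjusted p = 0.848). *prdx-3* made up 4.66% ± 0.912 and 4.77% ± 0.647 of the 2 peroxiredoxins' counts in unsupplemented wild type and mutants, and 5.67% ± 1.62 and 4.80% ± 0.879 with vitamin B12. None of the 4 differences in this share passed the exact permutation test (smallest p = 0.15).

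The members did not move as a block. Across the 20 libraries, with series means removed, *sod-2* and *prdx-3*, both mitochondrial, had the highest correlation of any pair (Pearson r = 0.762). *sod-4* and *ctl-2* followed at 0.58, *sod-2* and *prdx-2* at 0.489, and *sod-1* and *ctl-2* had the most negative value, -0.509. These are descriptions over libraries that share groups and depth, and the library that stood apart is among them.

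Counted over the comparisons, edgeR called 0 of the 7 tested members in mutants against wild type without supplement, where 2.81% of all genes were called. In this comparison *sod-3* and *sod-4* had an unadjusted p under 0.05, as had 15.1% of all genes. It called 0 for vitamin B12 in wild type and 0 for vitamin B12 in mutants, where 1.45% and 1.86% of genes were called, and no member had an unadjusted p under 0.05 in either (7.85% and 10.5% of all genes had). It called 0 for the difference of the vitamin B12 effects (0.0444% of genes), also with no member at an unadjusted p under 0.05 (4.09% of genes). With the replicate number as a block and the same low-count filter, the same 1 member was called. The share of all genes called was then 5.56% in mutants without and 0.949% with vitamin B12. It was 2.4% and 3.3% for vitamin B12 in wild type and mutants, and 0.115% for the difference. DESeq2 called 1 member, *sod-3*, in mutants with vitamin B12, where it called 0.444% of the 22736 genes of the count table. It called 0 in the other comparisons. There it called 2.05% in mutants without supplement, 1.06% and 1.35% for vitamin B12 in wild type and mutants, and 0.0792% for the difference. The median log2 fold change of the 7 members was -0.23 in unsupplemented and -0.03 in supplemented mutants, against -0.03 and 0.01 for all genes. For vitamin B12 it was -0.0049 in wild type and -0.09 in mutants, against -0.03 and 0.01.

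**Figure D3:**
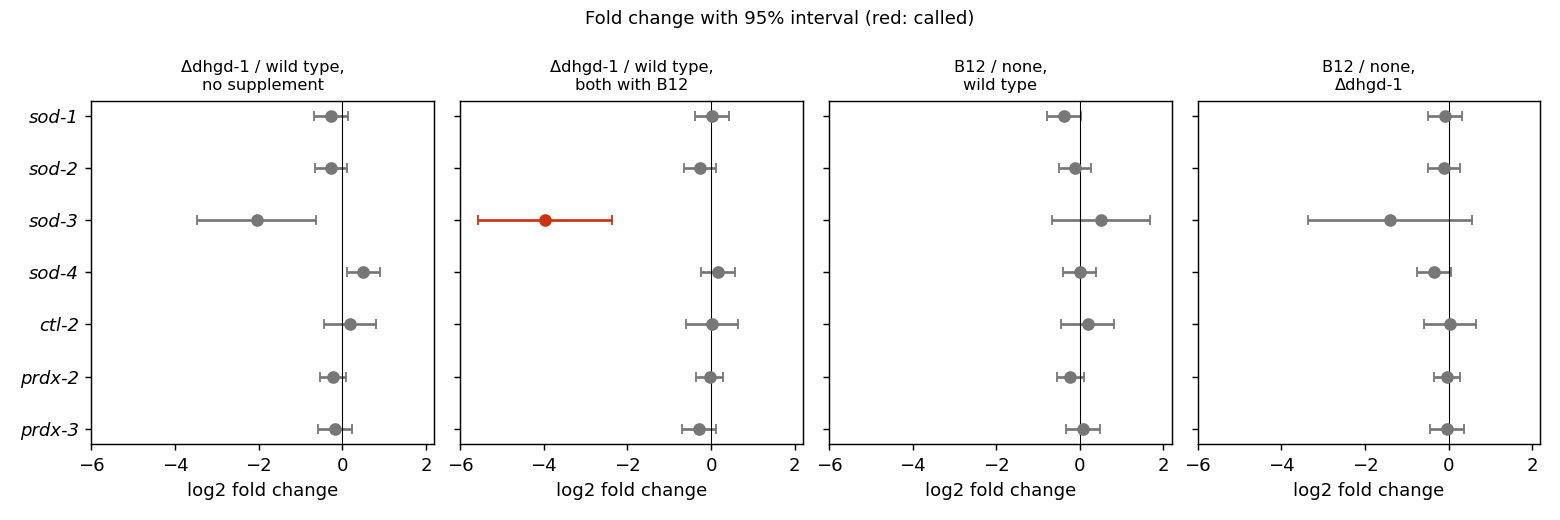
Log2 fold change with its 95% interval (edgeR) of the 7 tested members in the 4 comparisons; red marks a called gene. Only *sod-3*, which passed the low-count filter through wild-type libraries alone, is called (-3.97, -5.58 to -2.36, mutants against wild type with vitamin B12), and the intervals of *sod-1*, *sod-2*, *prdx-2* and *prdx-3* stay within 0.78 of 0.

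The enzymes that work beside these genes were counted from lists chosen with earlier results of these data known. Among 23 genes of the thioredoxin and glutathione systems, which recycle peroxiredoxins and repair oxidised protein, 20 were tested. Their most marked change was in *msra-1*, methionine sulfoxide reductase A, which returns oxidised methionine to methionine with thioredoxin. It fell with vitamin B12 in both strains. Wild-type replicates 1, 2, 5, 6 and 7 held 565, 129, 198, 410 and 460 CPM without and 38.8, 30.1, 34.4, 30.1 and 43.9 CPM with the supplement. Mutant replicates held 462, 244, 218, 306 and 314 CPM without and 18.03, 25.6, 25.6, 25.8 and 40.9 CPM with it. Neither pair of groups overlapped, as was so for 0.639% of all genes in wild type and 1.56% in mutants in this direction. The log2 fold changes were -3.36 (SE 0.33, edgeR adjusted p = 4.41e-07) in wild type and -3.46 (SE 0.33, adjusted p = 3.38e-07) in mutants. The difference between these was -0.11 (95% interval -0.99 to 0.78). *msra-1* overlaps *insc-1* on the other strand.

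Summed intestinal markers (6 genes) were higher in unsupplemented mutants than in wild type in 5 of 5 same-numbered pairs (2436 to 5093 CPM in wild type and 4218 to 7776 CPM in mutants), as were *trx-3*, *icl-1*, *dod-3* and *pqm-1* among the listed genes, and the part of the markers in those results was not tested. None of the 6 markers was called, and *act-5* was lower in mutants in 4 of 5 pairs.

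In the same list of partners, *trx-3*, an intestinal thioredoxin, was higher in unsupplemented mutants (4.003 to 20.7 CPM) than in wild type (0.573 to 3.24 CPM), with a log2 fold change of 2.39 (SE 0.64, edgeR adjusted p = 0.0393). This call was lost without any 1 of wild-type replicates 1, 2, 5 and 6 or mutant replicates 1, 2 and 5, with adjusted p up to 0.208 and log2 1.71 without mutant replicate 5. *gpx-7*, a glutathione peroxidase, fell with vitamin B12 in mutants from 7.97 ± 3.66 to 2.93 ± 0.891 CPM (log2 -1.34, SE 0.31, edgeR adjusted p = 0.0188). It was no longer called without unsupplemented mutant replicate 1 or 7 or supplemented mutant replicate 2 or 6 (adjusted p up to 0.0853, with log2 -1.18 without the first). The list had 1 higher and 0 lower gene in unsupplemented mutants, 0 with vitamin B12, 1 lower for vitamin B12 in wild type and 2 lower in mutants. Over all genes, 1.82% were called higher in unsupplemented mutants, and 0.674% and 1.02% were called lower for vitamin B12 in wild type and mutants. The 0 in supplemented mutants stood beside 1 gene at an unadjusted p under 0.05. DESeq2 also called 0 there, and in unsupplemented mutants it called *gpx-5* lower as well. The list's medians in these 4 comparisons were -0.06, -0.18, 0.03 and -0.02 on the log2 scale.

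None of 18 tested genes of peroxisome import and acyl-CoA oxidation, the process that feeds hydrogen peroxide to CTL-2, was called by edgeR in any comparison, with 2, 1, 1 and 1 genes at an unadjusted p under 0.05. The same held for 5 tested genes of the dual oxidase system, which makes hydrogen peroxide at the cuticle (1, 0, 0 and 1 at an unadjusted p under 0.05). DESeq2 called none in either list. Of 9 tested genes of the mitochondrial stress response, edgeR called 0, with 1, 1, 0 and 0 at an unadjusted p under 0.05, while DESeq2, and edgeR with the replicate block, called 1, *dve-1*, higher in unsupplemented mutants. Over all genes, edgeR called 2.81% and 0.55% in mutants without and with vitamin B12. For vitamin B12 in wild type and mutants it called 1.45% and 1.86%. The shares of all genes at an unadjusted p under 0.05 were 15.1%, 6.79%, 7.85% and 10.5% in the same order. At these shares, 0 called genes in lists this short do not set the lists apart from other genes.

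Targets of stress regulators were counted in the same way. Of 9 tested targets of DAF-16 other than *sod-3*, 2 were higher and 0 lower in unsupplemented mutants, and 1 was higher and 0 lower with vitamin B12 (over all genes, 1.82% and 0.346% were called higher). With the replicate block 4 were higher without supplement, *hil-1* and *lys-7* added. In the same comparisons the log2 fold change of *sod-3* was -2.05 (not called) and -3.97 (called). *icl-1*, the bifunctional glyoxylate cycle enzyme, stood at 83.0 ± 41.4 CPM in wild type and 344 ± 99.3 CPM in mutants without supplement, and at 39.2 ± 12.1 and 128 ± 59.5 CPM with it (SD, n = 5). The strains did not overlap in either condition (2.37% and 0.524% of all genes did not, in this direction), and the log2 fold changes were 1.90 (SE 0.34, edgeR adjusted p = 0.00159) and 1.66 (SE 0.34, adjusted p = 0.0161). The second was lost without supplemented wild-type replicate 2 (1.604, adjusted p = 0.0657) or mutant replicate 5 (1.42, adjusted p = 0.0974). *dod-3* rose from 9.79 ± 5.27 CPM in wild type to 36.0 ± 9.87 CPM in mutants without supplement (log2 1.71, SE 0.33, edgeR adjusted p = 0.0035). The median of the 9 targets was 0.45 without and 0.37 with vitamin B12, against -0.03 and 0.01 for all genes. Single targets ranged from -1.38 to 1.90 without and from -0.51 to 1.66 with it, so not all of them were higher. Of the 9, 4 and 3 had an unadjusted p under 0.05 in edgeR, as had 15.1% and 6.79% of all genes.

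For vitamin B12, 1 of the 9 was called higher in wild type, and 1 higher and 1 lower in mutants, where 0.772% of all genes were called higher in wild type and 0.843% higher and 1.02% lower in mutants. The replicate block added *mtl-2* (higher) in wild type and *hsp-12.3* (lower) in mutants. *dod-3* was higher with it in wild type (log2 1.31, edgeR adjusted p = 0.0403), a call lost without wild-type replicates 1, 2, 5 or 7 of the unsupplemented group or 1, 6 or 7 of the supplemented group (adjusted p up to 0.104). *mtl-2*, a metallothionein, was higher with it in mutants (90.5 ± 33.2 against 219 ± 112 CPM, log2 1.31, adjusted p = 0.0223). That call was lost without unsupplemented mutant replicates 2, 5 or 6 or supplemented mutant replicates 1 or 7 (adjusted p up to 0.13). *icl-1* fell with vitamin B12 in mutants (log2 -1.36, adjusted p = 0.028), and the call was lost without unsupplemented mutant replicates 1 or 7 or supplemented mutant replicates 6 or 7 (adjusted p up to 0.0929).

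Targets of SKN-1, the NRF-type regulator of detoxification, gave 2 higher of 7 tested for vitamin B12 in each strain and 0 between the strains, where 1 gene had an unadjusted p under 0.05 in either condition. Over all genes, 0.772% were called higher with vitamin B12 in wild type and 0.843% in mutants. The genes were *gst-10* and *gst-38*, both glutathione S-transferases. *gst-38* rose from 0.624 ± 0.581 to 6.56 ± 3.91 CPM in wild type and from 0.854 ± 0.321 to 5.76 ± 1.91 CPM in mutants (log2 3.25 and 2.80, edgeR adjusted p = 0.000267 and 0.000863). The wild-type value was 3.92 without unsupplemented replicate 5. *gst-10* rose from 4.87 ± 2.32 to 13.1 ± 6.10 CPM in wild type (log2 1.36, adjusted p = 0.031) and from 2.29 ± 0.674 to 9.63 ± 4.57 CPM in mutants (log2 2.12, adjusted p = 0.000586). The wild-type call of *gst-10* was lost without unsupplemented replicates 1, 6 or 7 or supplemented replicates 2, 5 or 7 (adjusted p up to 0.0954). DESeq2 called 3 targets for vitamin B12 in wild type, adding *gst-13*, and *gst-10* as lower in unsupplemented mutants. The replicate block did the same and also added *gst-13* as higher with vitamin B12 in mutants.

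Among 12 regulators, 1 was called higher in unsupplemented mutants and 1 lower for vitamin B12 in wild type, where 1.82% and 0.674% of all genes were called in these directions. The replicate block also called *pqm-1* lower with vitamin B12 in mutants. *pqm-1*, a zinc finger factor known to act on genes that complement those of DAF-16, stood at 6.53 ± 1.54 CPM in wild type and 26.5 ± 14.5 CPM in mutants (log2 1.86, SE 0.33, edgeR adjusted p = 0.00174). With vitamin B12 it stood at 7.23 ± 2.65 and 12.1 ± 6.24 CPM (log2 0.74, adjusted p = 0.696). *nhr-68*, a nuclear receptor of the pathway that responds to low vitamin B12, fell with the supplement in wild type (36.9 ± 13.9 against 17.9 ± 10.3 CPM, log2 -1.1045, adjusted p = 0.0418). This call held only when supplemented wild-type replicate 7 or unsupplemented replicate 2 was the library left out, and the other 8 exclusions gave adjusted p up to 0.176. The genes for DAF-16, SKN-1, HSF-1 and HIF-1 were not called in any comparison by edgeR or DESeq2. No gene of these lists was called for the difference of the vitamin B12 effects by either tool, with 3 at an unadjusted p under 0.05 in edgeR. Within the olga and s series, with 2 and 3 libraries a group, 1 and 6 of the 16 calls of these partner genes passed the threshold, and 16 of 16 kept their direction in each. Without the series term 8 of the 16 calls were lost: *trx-3* in unsupplemented mutants (adjusted p = 0.104), *icl-1* in supplemented mutants (0.065), *dod-3*, *gst-10* and *nhr-68* for vitamin B12 in wild type (0.0998, 0.123 and 0.16), and *gpx-7*, *mtl-2* and *icl-1* for it in mutants (0.0632, 0.0641 and 0.0768). Fitted on the 10 libraries compared, *dod-3*, *gst-10* and *nhr-68* were also lost for vitamin B12 in wild type (adjusted p = 0.146, 0.0801 and 0.142), and *nhr-68* was lost with library totals alone (0.108).

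**Figure D4:**
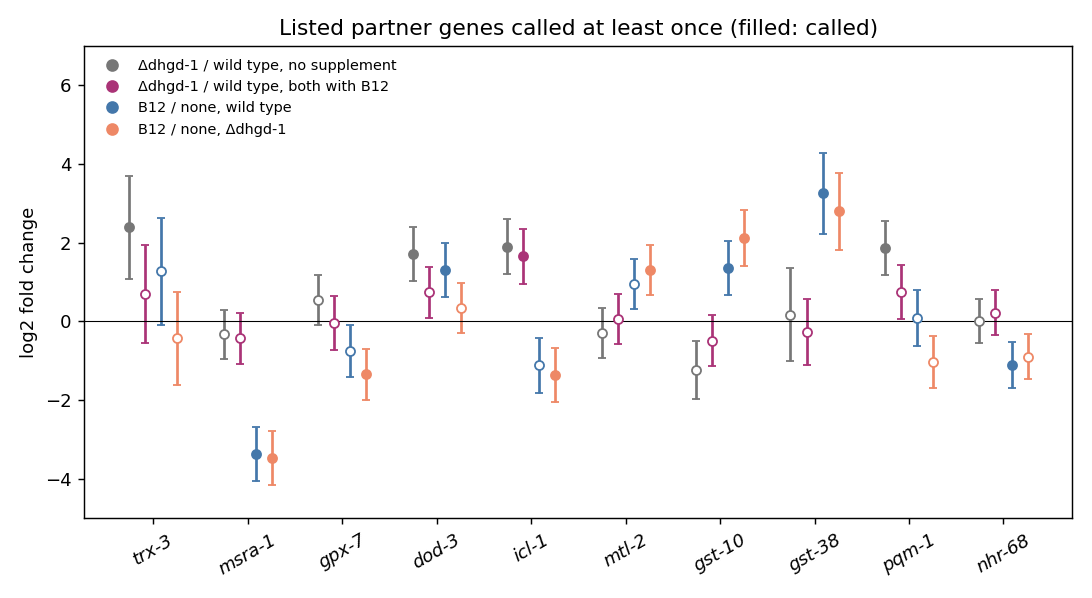
Log2 fold change with its 95% interval (edgeR) of the 10 listed partner genes called at least once, 4 comparisons a gene; filled symbols are called. *msra-1* fell with vitamin B12 in both strains (-3.36 and -3.46), and *icl-1* was higher in mutants with and without it (1.66 and 1.90).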

How the data were processed

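The authors demultiplexed Cel-seq2 reads with their own script, trimmed them with Trimmomatic 0.32, aligned them with STAR, counted reads per gene with ESAT and discarded pseudogenes. They deposited raw counts for 20 libraries. Aligner version, genome build, strand setting and treatment of molecular identifiers are not given in the sources used here. Of the 22736 gene identifiers, 22497 matched a symbol and 239 did not.

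Counts were tested with edgeR 4.0.16 (R 4.3.3) by its quasi-likelihood test, with TMM normalization, filterByExpr by group, and a term for the 2 library name series. All 20 libraries entered 1 fit of 11270 genes, with Benjamini-Hochberg adjustment. A call needed an adjusted p under 0.05 and, except for the difference of the vitamin B12 effects, a fold change over 1.5. DESeq2 1.42.0 was an alternative. Shares within a family were compared by two-sided exact permutation within name series (scipy 1.17.1), and binomial intervals were exact at 95%. Totals of 2837943 to 15457950 counts set the precision. The exact intervals cover counting error only, while the edgeR intervals also cover the spread between libraries.

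The members and gene lists were chosen with earlier results of these data known. All members are named, as are listed genes called in a comparison (at most 4 a list and comparison) and the 3 genes most like each called member. Values in CPM are counts divided by library totals. Coordinates come from WBcel235. The catalase sum and the share of *ctl-2* in the catalases were not computed, because *ctl-1* and *ctl-3* are not analysed here. Alternatives were other normalizations, no low-count filter, no fold minimum, no series term, a replicate block, only the libraries compared, each series alone, and each library left out. Same-numbered libraries deviated together from their group means (Pearson r over genes 0.204 to 0.729 in every pair and comparison), in part through the name series: with it removed r was -0.216 to 0.664. The fit without the block stayed the main one, and the block's values stand beside the results it changes, a placement chosen after its calls were seen.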

Additional observations from a re-analysis of the deposited data

Results flagged for a closer look

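Among 88 groups of 5 libraries examined (the 18 genes, 3 shares and 1 ratio described above), 10 held a library far from the other 4 by Dixon's criterion. Its chance rate of about 1 in 20, or 4.4, holds for independent normal values. Levels and shares of *sod-3* and *sod-5* rest on the same few counts, so 10 against 4.4 shows no excess. Unsupplemented wild-type replicate 1 had 3.22 CPM of *sod-3* against 0.286 to 0.949 CPM in the rest, and a *sod-3* share of 2.34% against 0.291% to 0.804%. Supplemented mutant replicate 6 was the only library of its group with *sod-3* counts (0.259 CPM, a share of 0.344%). Supplemented wild-type replicate 1 had 1.41 CPM of *sod-5* against 0 to 0.188 CPM, and a *sod-5* share of 0.0965% against 0 to 0.0209%, from 4 counts. Supplemented mutant replicate 1 had 34.5 CPM of *trx-3* against 1.81 to 6.04 CPM. Supplemented wild-type replicate 2 had a *prdx-3* share of 2.86% against 5.73% to 6.88%. The ratio of *sod-1* to *sod-2* was 3.59 in supplemented wild-type replicate 7 against 10.1 to 12.28, and 8.59 in unsupplemented wild-type replicate 7 against 11.6 to 11.8. None of the 7 tested members passed the test of a difference between strains in the vitamin B12 effect.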

How the results depend on the processing

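*sod-3* in supplemented mutants was the 1 member called, and the count of called members became 0 when only the 10 libraries compared were fitted (*sod-3* then failed the filter and was not tested), within the olga series, and within the s series; leaving out 1 library gave 0 to 1. It stayed 1 with the other settings, DESeq2 included. The counts of 0 in the other comparisons stayed 0 under every setting run. A replicate number as a block gave *sod-3* a log2 fold change of -4.01 (edgeR adjusted p = 0.00747) and changed no member's call. This fit used the same low-count filter, which *sod-3* passed through wild-type libraries alone, so its call is a description too. The genes called in all went from 317 to 627, 62 to 107, 163 to 271, 210 to 372 and 5 to 13. The order is mutants without and with vitamin B12, vitamin B12 in wild type and in mutants, and the difference. Calls of listed genes that the block added are given with their lists, apart from *egl-3*, 1 of 6 neuron markers, which it called higher in unsupplemented mutants. The block removed no call. For the shares, the sign-flip test over 5 pairs could not have passed the threshold, so it says nothing on stability. The log2 fold change of *ctl-2* for vitamin B12 in mutants turned to -0.0225 under the block.

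Uncalled changes near 0 turned sign, and the cause was not tested. Within the olga series, *prdx-3* was 0.15 in unsupplemented mutants, *sod-1* -0.19 in supplemented mutants, *sod-3* -0.093 and *sod-4* 0.065 for vitamin B12 in wild type, *prdx-2* 0.15 for vitamin B12 in mutants, and the *sod-2* difference -0.12. Within the s series, *ctl-2* was -0.20 and *prdx-2* 0.0042 in supplemented mutants, *ctl-2* -0.14 and *prdx-3* 0.062 for vitamin B12 in mutants, and the *prdx-3* difference 0.060. Without the series term, *sod-1* was -0.0063 and *ctl-2* -0.030 in supplemented mutants and *ctl-2* -0.0012 for vitamin B12 in mutants. With library totals alone, *prdx-2* was 0.025 in supplemented mutants, *sod-4* 0.034 for vitamin B12 in wild type and the *sod-2* difference -0.077. *sod-4* for vitamin B12 in wild type was 0.0044 with no filter and 0.0050 in the 10 libraries compared. Leaving out 1 library gave, in supplemented mutants, *sod-1* -0.14 to 0.14, *ctl-2* -0.18 to 0.33 and *prdx-2* -0.13 to 0.0060. For vitamin B12 in wild type it gave *sod-4* -0.16 to 0.12, *ctl-2* -0.13 to 0.48 and *prdx-3* -0.048 to 0.23, and in mutants *ctl-2* -0.16 to 0.15, *prdx-2* -0.090 to 0.052 and *prdx-3* -0.086 to 0.079. The differences ranged from -0.12 to 0.13 for *sod-2*, -0.45 to 0.14 for *ctl-2* and -0.26 to 0.0028 for *prdx-3*. Shares, in percentage points, ranged from -0.0021 to 0.0039 for *sod-5* and from -0.25 to 0.32 for *prdx-3* for vitamin B12 in mutants, and from -0.14 to 0.32 for *prdx-3* in unsupplemented mutants. The catalase sum and the *ctl-2* share were not run. Counts of *sod-3* and *sod-5* limit what can be seen of both.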
